A study of Mus musculus with 96 samples.

Results

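The collagen chain genes are the mouse genes whose symbols read Col, a number, the letter a and a second number. Members were chosen by symbol alone, and 42 of the 19505 genes with a symbol on the array fit the rule, each with 1 probe set. The family was picked for description after its values in these hemispheres had been seen, so the counts of members below describe these mice and are not independent evidence about the family. Tissue came from a brain slice at the level of bregma, cut into its right side with the filament (ipsilateral, IP) and its left side (contralateral, CL), from mice whose middle cerebral artery had been occluded (MCAO) and from sham mice. Blood flow was blocked for 90 min and restored for 30 min, so that brains were perfused with saline and collected 2 h after onset. Diabetic mice were males of the strain BKS-Leprdb/db/JOrlRj, 8 to 12 weeks old, whose mutation removes the signalling form of the leptin receptor from all cells. Old mice were C57Bl/6j males aged 18 months, and the group called male was C57Bl/6j males of 8 to 12 weeks. Values were taken from 34 mice, of which 8 diabetic, 8 old and 7 male mice had MCAO and 4 diabetic, 4 old and 3 male mice had sham surgery. No lean mice of the BKS strain were among them, so strain, leptin receptor and diabetes cannot be told apart.

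Collagens are secreted proteins whose chains wind around one another into a helix and then assemble outside the cell. Fibrillar chains such as those of types I, III and V build the fibers of connective tissue and, in the brain, lie mostly in the meninges and around larger vessels. Type IV chains form the sheet of the basement membrane beneath the endothelium and around every brain capillary and type VI filaments border on basement membranes in many tissues. The fibril-associated collagens with interrupted helices (FACIT) sit on the surface of fibers, and the transmembrane collagens stay anchored in the membrane of the cell that makes them. Loss of the basement membrane around capillaries is a known step in the opening of the blood-brain barrier after ischemia.

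Measurements are log2 signals of Clariom S Mouse arrays, 1 array for each hemisphere of a mouse, and a result is IP minus CL within a mouse, so that a value of 1 is a doubling in the ipsilateral hemisphere. The 24 arrays labelled female were not used, because their hemisphere labels are in doubt, and 2 male mice were left out whose 4 arrays correlated at only 0.366 to 0.598 with the rest of their group. In the diabetic and old arrays 8800 values lay 3 rows late against their probe sets and were moved back, which concerns 13 of the 42 members. The 3 groups were normalized apart, the male arrays in an earlier set of experiments, so no level was compared between groups. All 8 immediate early genes of a check list rose in the ischemic hemisphere of diabetic mice, with a median of 1.89, against a median of -0.02 and no call in diabetic sham mice. In male MCAO mice all 8 were called higher, with a median of 1.77. In old MCAO mice all 8 were positive, between 0.92 and 2.93 with a median of 1.42, and 4 of them were called. The members are dim on this array. In diabetic mice 36 of 42 lay below the median signal of all genes, and 4 exceeded the brightest of 23 control probe sets that match no mouse sequence, whose signal depends on their base composition. How far a given member stood above its own background is therefore not known.

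In diabetic mice with MCAO, 17 of the 42 collagen genes were higher in the ischemic hemisphere at a Benjamini-Hochberg adjusted p under 0.25, the threshold of the study's methods, and 0 were lower (limma). The count fell to 9 without MCAO mouse 4 and to 10 without MCAO mouse 2, and with the filter on the standard deviation that the methods also use 11 members were left and 1 was called. Of all genes tested, 10.7% were called higher and 11.4% lower in the same comparison. The median IP minus CL of the 42 genes was 0.21, against 0.02 over all genes, and 38 of the 42 were positive, against 53.7% of all genes. Changes were small. The called members ran between 0.23 for Col6a5 and 0.51 for Col11a1, and 2 of them, Col16a1 and Col11a1, also passed at an adjusted p under 0.05, as 1.04% of all genes did in that direction. Just inside the threshold lay Col15a1 at 0.27 (adjusted p = 0.232) and just outside it Col10a1 at 0.41 (adjusted p = 0.326), which is the larger of the 2 differences and has the wider spread. In old and in male mice with MCAO no member was called (limma; unadjusted p under 0.05 for 2 and 4 members), where 0.0308% and 0.338% of all genes were called higher and 0.0103% and 0.133% lower.

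**Figure D1:**
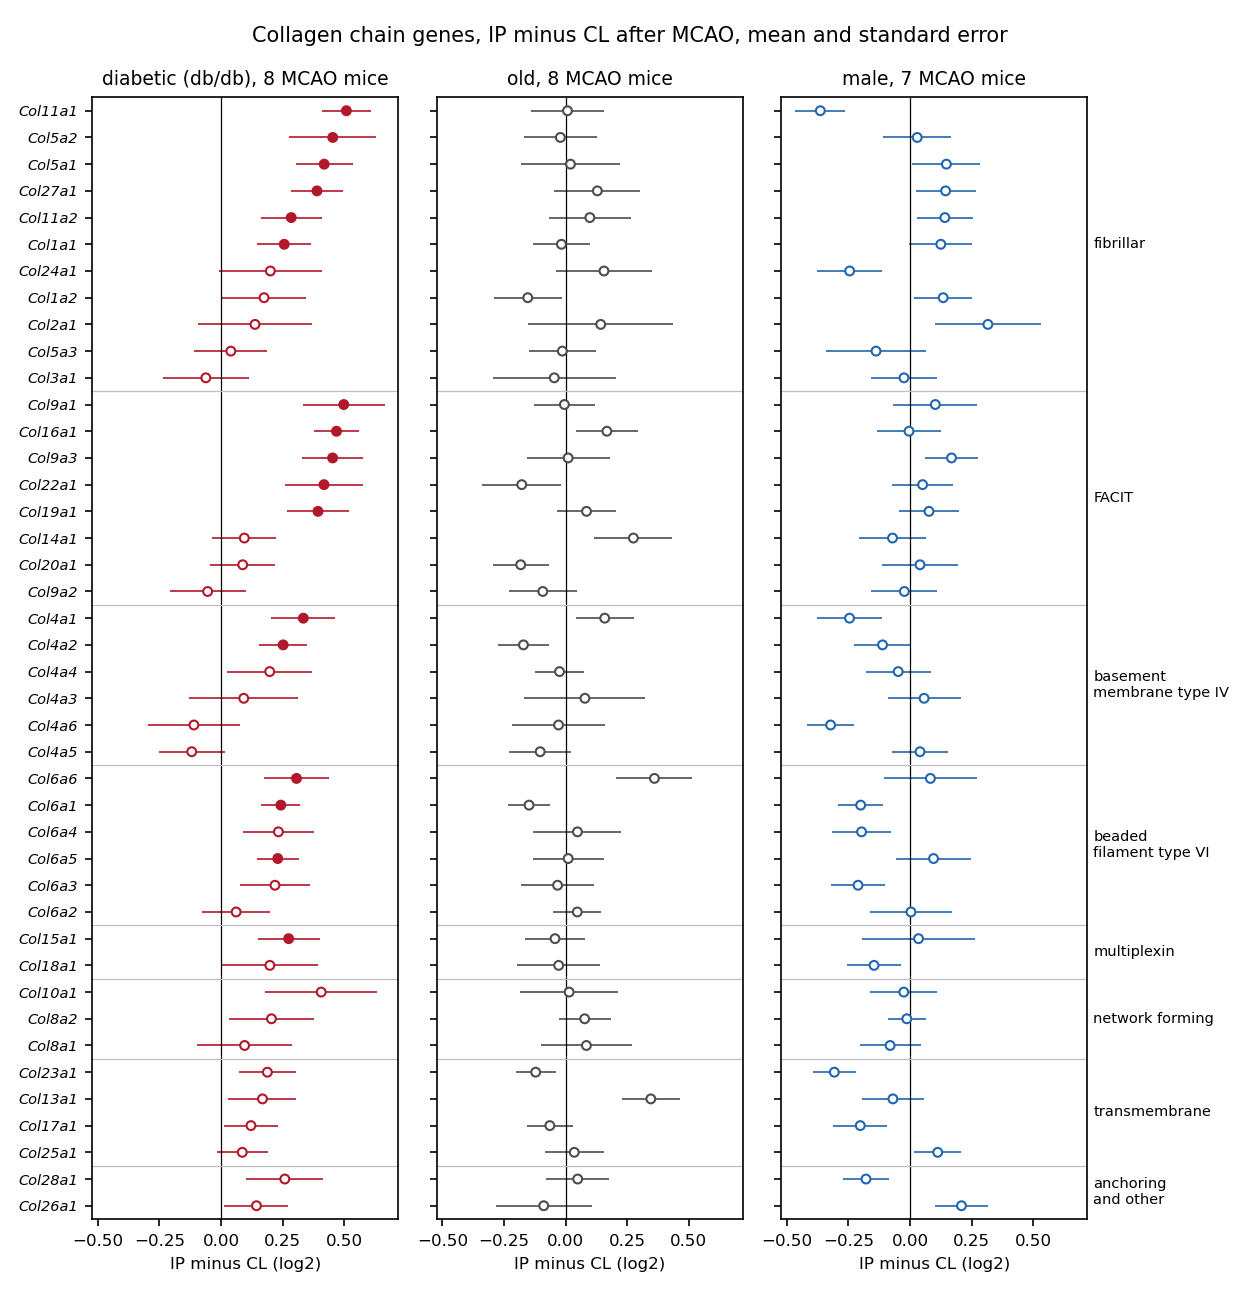
IP minus CL on the log2 scale (horizontal axis) of the 42 collagen chain genes (rows, grouped by class) in diabetic, old and male mice with MCAO. Points are means, bars the standard errors of the limma fit, and filled points the genes with an adjusted p under 0.25: 17 in diabetic mice and none in old or male mice.

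Col11a1 (chr3:114030479-114220756, GRCm38), which encodes a chain of the thin fibrils of cartilage and is also expressed outside it, had the largest difference of the family. In diabetic mice with MCAO its IP minus CL was 0.22 at the lowest, 0.46 at the median and 0.87 at the highest of 8 mice, against -0.47, -0.13, 0.16 and -0.27 in the 4 diabetic sham mice. Every MCAO mouse was thus above 0 and above every sham mouse. Its signal in the MCAO mice was between 5.78 and 6.71 in IP and between 5.54 and 5.95 in CL. The mean difference was 0.51 ± 0.10 (SE, n = 8), a 1.42-fold higher signal, with an adjusted p of 0.0234 in limma. Of all genes, 1.88% were above 0 in all 8 diabetic MCAO mice and 0.523% had every diabetic MCAO mouse above every diabetic sham mouse. Col11a1 was the only member among the second.

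Col16a1 (chr4:130047817-130099277), a FACIT chain that connective tissue cells bind through integrins, was the other member above 0 in all 8 diabetic MCAO mice. Its IP minus CL was 0.15, 0.49 and 0.69 at the lowest, median and highest mouse, against 0.29, 0.27, -0.24 and -0.27 in the diabetic sham mice. The lower MCAO mice overlapped with the higher sham mice. The signal was between 6.45 and 7.08 in IP and between 5.90 and 6.48 in CL of the MCAO mice, and the mean difference was 0.47 ± 0.09 (SE, n = 8), or 1.38-fold, with an adjusted p of 0.0233 in limma.

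The promoters of these 2 genes are shown because they were the members that passed the stricter threshold. The sequences run 5′ to 3′ on the plus strand and come from RefSeq (GRCm38.p6), from the start of the window up to the last base before the annotated gene, chr4:130047590-130047816 for Col16a1 and chr3:114030290-114030478 for Col11a1. Capitals mark matches to GGGCGG, the GC box, and to CCAAT, the CCAAT box, on either strand.
Col16a1: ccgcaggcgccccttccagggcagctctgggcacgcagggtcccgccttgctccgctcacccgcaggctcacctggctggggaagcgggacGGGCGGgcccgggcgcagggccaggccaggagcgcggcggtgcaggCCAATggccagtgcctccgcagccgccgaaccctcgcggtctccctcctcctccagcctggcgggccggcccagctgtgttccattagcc
Col11a1: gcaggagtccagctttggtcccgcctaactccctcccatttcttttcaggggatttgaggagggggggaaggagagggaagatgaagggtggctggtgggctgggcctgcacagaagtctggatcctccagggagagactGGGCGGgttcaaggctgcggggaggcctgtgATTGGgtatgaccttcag
Each stretch held 1 GC box and 1 CCAAT box and neither TATAAA, the TATA box, nor TGANTCA, the AP-1 motif, where N is any base. Promoter windows (250 bases before to 50 after the start, both strands searched, matches of the 4 motifs counted each on its own even where they overlap) were found for 34 of the 42 members and for 27025 genes. The GC box was in 21 of the 34 members (61.8%), against 38.2% of all genes. The AP-1 motif, bound by Fos and Jun proteins, was in 1 of the 34, Col6a1, against 8.97% of all genes, the CCAAT box in 12 (35.3%, against 41.1%) and the TATA box in 5 (14.7%, against 15.7%). A match is a description of the letters in the window and not a binding site.

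Among the 11 fibrillar genes, 6 were higher in diabetic mice with MCAO and 5 did not pass, with a median of 0.26. Beside Col11a1 these were Col5a2, Col5a1, Col27a1, Col11a2 and Col1a1. The type V genes Col5a1 and Col5a2, whose product sets the width of type I fibrils, had mean differences of 0.42 ± 0.12 and 0.45 ± 0.18 (SE, n = 8). Col5a1 was between -0.16 and 0.77 with a median of 0.55 and was higher in IP in 7 of 8 mice, against 0.14, 0.11, 0.35 and -0.44 in the sham mice. Col5a2 was between -0.57 and 1.30 with a median of 0.35, also higher in 7 of 8 mice, against 0.34, 0.74, -0.36 and 0.08 in the sham mice. For both genes the groups overlapped. Col1a1, the main chain of type I collagen, was between -0.20 and 0.72 with a median of 0.22, against 0.15, -0.06, -0.57 and -0.08 in the sham mice, and its mean difference was 0.26 ± 0.11 (SE, n = 8, adjusted p = 0.198 in limma). Its partner chain Col1a2 did not pass, at 0.17 ± 0.17, with 3 of 8 mice higher in IP and a median of -0.08. Col3a1, the type III chain of vessel walls, was between -0.75 and 0.88 with a median of -0.05 and a mean of -0.06 ± 0.17 (SE, n = 8), and 2 of 8 mice were higher in IP. Col1a2 and Col3a1 had adjusted p values of 0.593 and 0.873, and differences between these genes were not tested.

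Col27a1, a fibrillar chain known from cartilage, and Col11a2, which pairs with Col11a1 in type XI collagen, completed this class. Col27a1 was between -0.02 and 0.68 with a median of 0.44 in diabetic MCAO mice, and its mean of 0.39 ± 0.11 (SE, n = 8) had an adjusted p of 0.0695 in limma. The diabetic sham mice had 0.49, 0.54, -0.06 and 0.77. IP minus CL of Col27a1 thus averaged 0.44 in diabetic sham mice, against 0.39 in diabetic MCAO mice. Col11a2 was between -0.37 and 0.92 with a median of 0.27 and was higher in IP in 7 of 8 mice, against 0.30, -0.15, 0.11 and -0.32 in the sham mice.

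Of the 8 FACIT genes, 5 were higher in diabetic MCAO mice, and the median of the class was 0.41. The type IX genes Col9a1 and Col9a3, whose chains cover the fibrils of cartilage, had means of 0.50 ± 0.17 and 0.45 ± 0.12 (SE, n = 8), while Col9a2 of the same collagen was at -0.05 and did not pass. Col9a3 was between -0.13 and 1.05 with a median of 0.41 and higher in IP in 7 of 8 mice, against 0.36, 0.20, -0.13 and -0.45 in the sham mice. Col9a1 spread more widely, between -0.24 and 1.27 with a median of 0.62 and 5 of 8 mice higher in IP, against -0.08, -0.57, 0.07 and -0.03 in the sham mice. Col19a1, a FACIT chain made by interneurons of the mouse brain, was between -0.30 and 1.05 with a median of 0.36, and 7 of 8 mice were higher in IP. Its mean was 0.39 ± 0.13 (SE, n = 8), against 0.27, -0.39, 0.16 and 0.03 in the sham mice. Col22a1, a chain of tissue junctions such as that between muscle and tendon, was between -0.18 and 1.41 with a median of 0.45 and averaged 0.42 ± 0.16, with 6 of 8 mice higher in IP, against 0.75, -0.16, 0.36 and -0.29 in the sham mice. Col14a1 and Col20a1 had differences of 0.09 each and did not pass.

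Of the 6 type IV genes of the basement membrane, Col4a1 and Col4a2 were called. They encode the chains found in nearly every basement membrane, including that of brain vessels, and lie head to head on chromosome 8, where the annotated gene bodies chr8:11198423-11312889 (Col4a1, minus strand) and chr8:11312805-11449287 (Col4a2, plus strand) overlap at their starts. Col4a1 was between -0.37 and 1.03 with a median of 0.30 in diabetic MCAO mice, with 7 of 8 mice higher in IP, and its mean was 0.33 ± 0.13 (SE, n = 8). The sham mice had 0.09, 0.23, 0.40 and -0.47. Col4a2 was between -0.31 and 0.63 with a median of 0.32 and a mean of 0.25 ± 0.10 (SE, n = 8), against 0.13, 0.31, 0.61 and 0.42 in the sham mice. All 4 sham mice were above 0 in Col4a2, and their mean of 0.37 ± 0.20 (SD) exceeded that of the MCAO mice. The chains of specialised basement membranes, Col4a3, Col4a4, Col4a5 and Col4a6, were between -0.12 and 0.20 and did not pass.

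Among the 6 type VI genes, whose chains form beaded filaments next to basement membranes, Col6a1, Col6a5 and Col6a6 were called, and all 6 were positive, with a median of 0.23. Col6a1 was between -0.13 and 0.48 with a median of 0.24, higher in IP in 7 of 8 mice, against -0.19, 0.00, 0.15 and -0.08 in the sham mice, and its mean was 0.24 ± 0.08 (SE, n = 8). Col6a5 was between -0.02 and 0.62 with a median of 0.20, against -0.23, -0.04, 0.35 and -0.04 in the sham mice. Col6a6 was between -0.24 and 1.00 with a median of 0.34 and 5 of 8 mice higher in IP, against -0.03, 0.06, 0.28 and 0.32 in the sham mice. Of these 3 genes none separated MCAO from sham mice. Of the multiplexins, collagens of the basement membrane zone, Col15a1 was called, between -0.16 and 0.93 with a median of 0.21, against 0.51, -0.27, -0.35 and -0.34 in the sham mice. Col18a1, the source of endostatin, was at 0.20 ± 0.20 (SE, n = 8) and did not pass. None of the 3 network-forming, 4 transmembrane and 2 other genes was called in diabetic MCAO mice, although all 9 were positive. They included Col25a1, a transmembrane collagen of neurons, at 0.09.

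**Figure D2:**
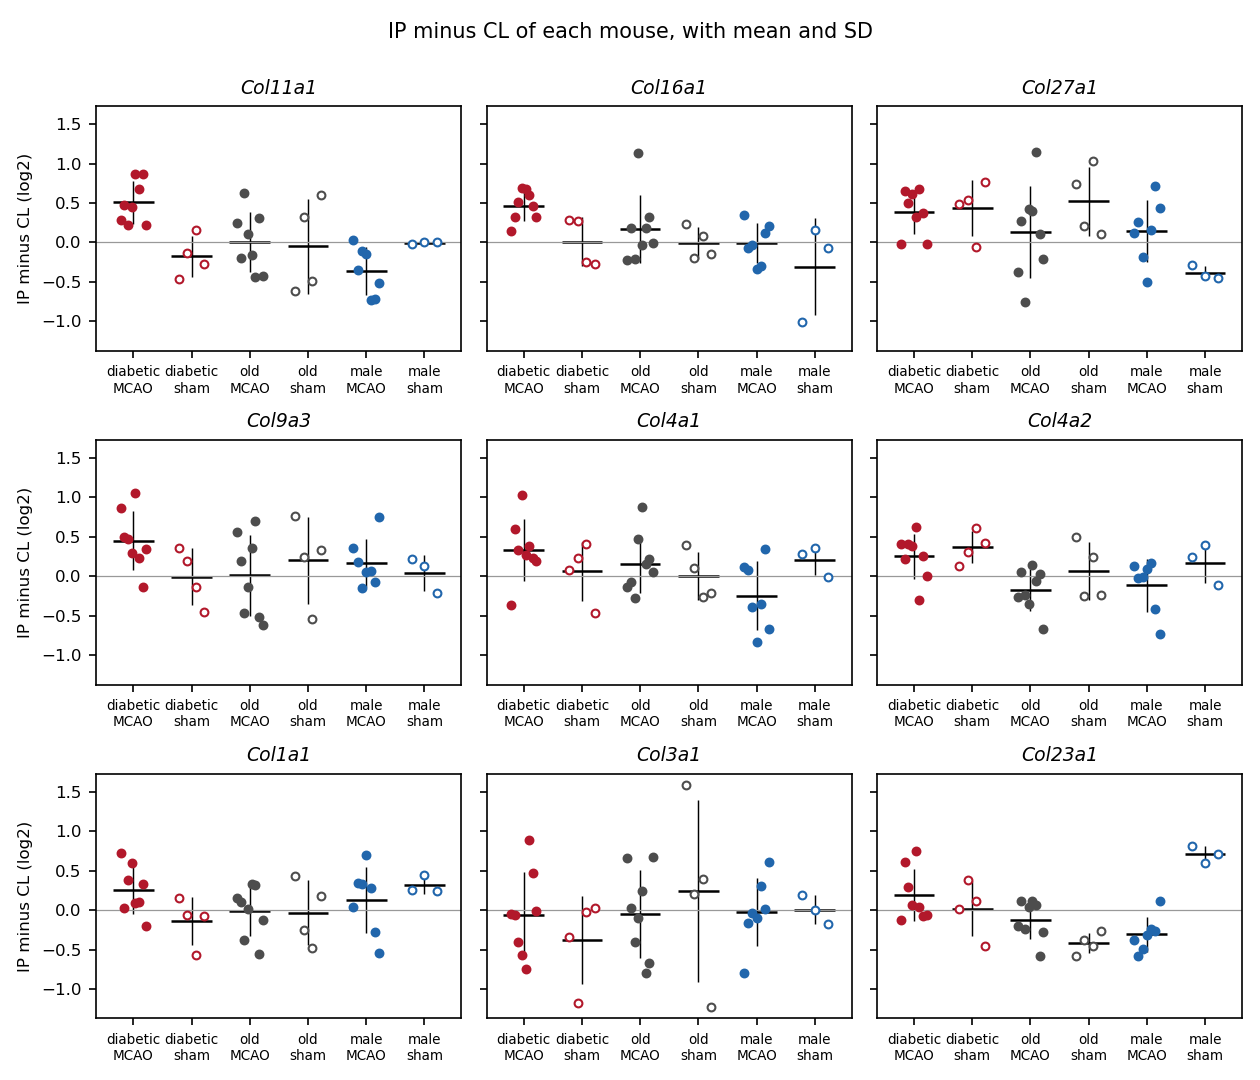
IP minus CL on the log2 scale (vertical axis) of single mice for 9 collagen genes in diabetic, old and male mice after MCAO (filled) or sham surgery (open). Horizontal lines are means and vertical lines SD. Col11a1 separates all 8 diabetic MCAO mice from the 4 diabetic sham mice, Col27a1 and Col4a2 are as high in diabetic sham mice, and Col23a1 lies higher in the 3 male sham mice than in any male MCAO mouse.

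Sham mice give the difference between the right and left hemisphere after surgery without occlusion. No member was called in sham mice of any group or in their pooled fit (limma; unadjusted p under 0.05 for 4 diabetic, 1 old, 5 male and 2 pooled members), and no gene of the array was. The median of the members was -0.00280 in diabetic sham mice. The difference between MCAO and sham mice within the diabetic group had a median of 0.27 over the members, against 0.01 over all genes, and 34 of 42 were positive. However, it passed for 0 of 42 members and for 0% of all genes in either direction (limma; unadjusted p under 0.05 for 4 members). None of the 8 immediate early genes of the check list passed either, at 1.23 to 3.35 with a median of 1.99. A missing call in this comparison therefore says little about the members. Among the members the largest values of this difference were 1.12 for Col10a1, 0.69 ± 0.17 (SE) for Col11a1 (adjusted p = 0.299) and 0.65 ± 0.29 for Col9a1 (adjusted p = 0.492), while Col27a1 was at -0.05 ± 0.19 and Col4a2 at -0.12 ± 0.17. With 4 sham mice the difference has a standard error of 0.14 to 0.31 for the 17 members called in diabetic MCAO mice. Pooled over the 3 groups, the difference between MCAO and sham mice also passed for 0 of 42 members (limma; unadjusted p under 0.05 for 3), where 0.805% of all genes were called higher and 0.477% lower. All 8 genes of the check list passed in that pooled difference.

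**Figure D3:**
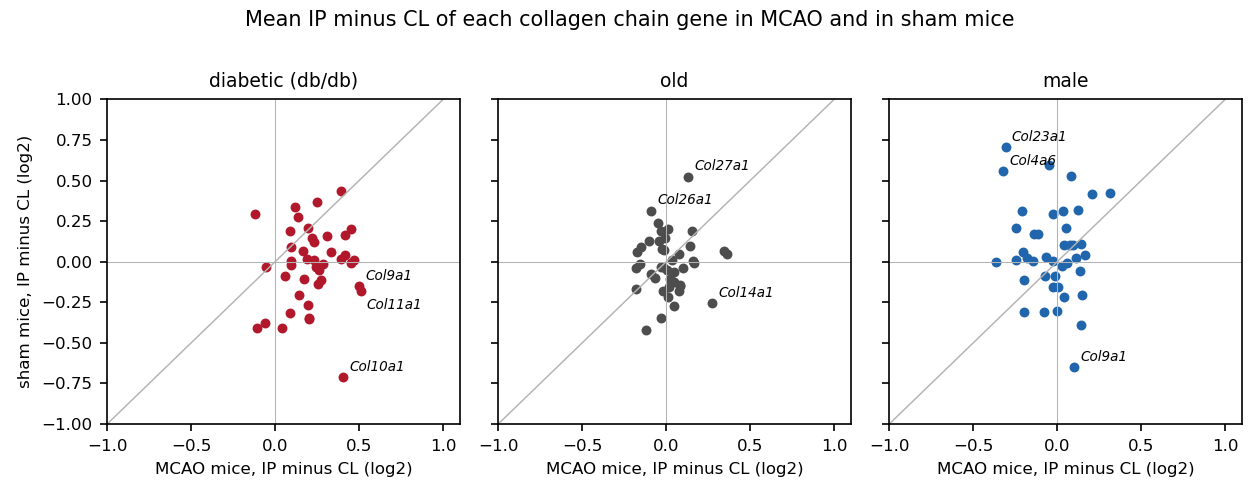
Mean IP minus CL (log2) of each of the 42 collagen chain genes in MCAO mice (horizontal axis) and sham mice (vertical axis) of the diabetic, old and male groups, with the line of equality. The 3 genes farthest from the line are named in each panel, and in diabetic mice 34 of 42 points lie on the MCAO side of the line.

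Pooled over diabetic, old and male mice with MCAO, 5 members were higher and 0 lower, where 6.11% of all genes were called higher and 8.24% lower. They were Col16a1 at 0.21 ± 0.07 (adjusted p = 0.0871), Col27a1 at 0.22 ± 0.08, Col6a6 at 0.25 ± 0.10, Col9a3 at 0.21 ± 0.08 and Col19a1 at 0.19 ± 0.07 (SE, n = 23 mice, limma). In sham mice Col6a6 was also at 0.25 in the pooled fit. Col27a1 averaged 0.44 in diabetic, 0.52 in old and -0.39 in male sham mice. The pooled sham means of Col16a1, Col9a3 and Col19a1 were lower than those after MCAO. The pooled mean counts each group equally and shares the diabetic mice with the comparison above. In old MCAO mice Col6a6 averaged 0.36, with values between -0.15 and 1.25, and the other 4 between 0.01 and 0.17. In male MCAO mice the 5 genes averaged between -0.00394 and 0.17. Col6a6 signals of these mice were between 1.25 and 2.34, where the median control probe set was at 1.72. The median over all 42 members was 0.01 in old and -0.00848 in male mice. Positive values were found for 22 of 42 members in old mice, where 47.2% of all genes were positive, for 20 of 42 in male mice (49% of all genes) and for 31 of 42 in the pooled fit (50.3% of all genes). No member was above 0 in all 8 old or all 7 male MCAO mice, which 0.559% and 1.28% of all genes were, and in male mice none had every MCAO mouse above every sham mouse (1.09% of all genes).

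Among the 17 members called in diabetic mice, 10 were positive in old mice, between -0.18 and 0.36, and 12 in male mice, between -0.36 and 0.17. Col11a1 was between -0.44 and 0.62 with a median of -0.03 in old mice, and between -0.73 and 0.03 with a median of -0.35 in male mice, where 1 of 7 was higher in IP. Col4a2 was between -0.67 and 0.14 in old mice with a median of -0.15, and between -0.74 and 0.17 in male mice with a median of -0.01. Col6a1 was higher in IP in 2 of 8 old and 1 of 7 male mice. Of these 3 genes, Col4a2 and Col6a1 were thus lower in IP in most mice of both groups and Col11a1 in most male mice, although neither group had a call.

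The difference in IP minus CL between diabetic and old mice with MCAO was called for 4 members, all of them higher in diabetic mice, where 2.73% of all genes were called higher and 2.42% lower. These were Col6a1 at 0.39 ± 0.11, Col11a1 at 0.50 ± 0.17, Col4a2 at 0.42 ± 0.15 and Col22a1 at 0.60 ± 0.22 (SE, n = 8 each, limma, adjusted p between 0.156 and 0.242). Between diabetic and male mice 6 members were called, again all higher in diabetic mice, where 4.19% of all genes were called higher and 5.15% lower. They were Col11a1 at 0.87 ± 0.18 (adjusted p = 0.0197), Col6a1 at 0.44 ± 0.12, Col23a1 at 0.50 ± 0.14, Col4a1 at 0.58 ± 0.19, Col16a1 at 0.47 ± 0.17 and Col4a2 at 0.36 ± 0.15. The 2 comparisons share the diabetic mice. Between old and male mice 0 members and 0% of all genes were called (limma; unadjusted p under 0.05 for 3 members). Strain, leptin receptor and diabetes, against old mice also age, and against male mice also the set of experiments, differ together with these groups and cannot be told apart.

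In male mice the difference between MCAO and sham mice was called for 1 member, Col23a1 (chr11:51289679-51583925), a transmembrane collagen, which was lower. It was 1 of 3 genes of the whole array called in that comparison, and the only lower one (0.00513% of all genes, against 0.0103% higher). Col23a1 was between -0.58 and 0.11 with a median of -0.31 in the 7 male MCAO mice, against 0.81, 0.60 and 0.71 in the 3 male sham mice, so the groups did not overlap. The difference was -1.01 ± 0.16 (SE, adjusted p = 0.233 in limma), and the sham mice contributed more of it than the MCAO mice. The call was lost in 8 of 10 fits that left out 1 mouse, with centred arrays, without the mouse as a block and with the 2 poor male mice kept, and its adjusted p was between 0.107 and 0.903 over 14 alternatives. In old mice the sham values were -0.58, -0.37, -0.46 and -0.27, below 0, and in diabetic mice 0.02, 0.38, 0.12 and -0.45. Col4a6 was the second member without overlap in male mice, between -0.53 and 0.15 after MCAO against 0.53, 0.36 and 0.78 after sham surgery, and its difference of -0.88 ± 0.18 did not pass (adjusted p = 0.278). Of all genes, 0.923% had every male MCAO mouse below every male sham mouse. Col23a1 and Col4a6, like Col11a1, Col15a1, Col22a1 and Col6a1, were described mouse by mouse because of their values.

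The counts of genes for making, binding and degrading collagen in diabetic MCAO mice stand beside the 10.7% of all genes called higher and 11.4% called lower there. Of 14 measured genes for the modification of prolines and lysines, 5 were higher and 1 was lower in diabetic MCAO mice. P4ha1, the catalytic subunit of prolyl 4-hydroxylase and known as a target of hypoxia-inducible factor, had the largest change, at 0.62 ± 0.08 (SE, n = 8, adjusted p = 0.00531 in limma). It was also higher when the groups were pooled, at 0.55 ± 0.06, and P4ha2 was higher in diabetic mice, at 0.21 ± 0.09. Ppib, the prolyl isomerase cyclophilin B, was lower, at -0.18 ± 0.06 in diabetic mice. Of 7 genes for folding and secretion 1 was lower, Creb3l1, a transcription factor that drives collagen genes, at -0.44 ± 0.10. Of 11 genes for processing and crosslinking 1 was higher and 0 lower. Tll2, a protease related to the one that trims procollagen, was at -0.16 ± 0.15 in diabetic mice and did not pass there, and was lower in the pooled fit, at -0.22 ± 0.10.

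Of 8 collagen receptor genes 1 was higher and 1 lower in diabetic MCAO mice, close to the shares of all genes. Itgb1, the integrin subunit shared by all collagen-binding integrins, was at 0.36 ± 0.09 and Itga11, which pairs with it on fibroblasts, at -0.38 ± 0.14 (SE, n = 8). Of 10 genes of degradation 3 were higher and 0 lower, among them the collagenase Mmp13 at 0.70 ± 0.14 (adjusted p = 0.0276 in limma), while Mmp14, its activator at the membrane, was at 0.14 ± 0.18 and did not pass. Another of the 3 was Mmp8, which is also counted among the neutrophil markers below. Of 10 regulators 3 were higher and 1 lower. Ccn1, a matrix protein encoded by an immediate early gene, was at 1.99 ± 0.23 and Smad7, the inhibitor of transforming growth factor signalling, at 0.45 ± 0.13. In old mice none of the genes of these 6 lists was called over all 19505 genes, although Ccn1 was at 1.25 there. The paper, which filtered genes on the standard deviation first, lists Ccn1 among the changed genes of old mice. In male mice 1 gene for proline and lysine modification and 1 regulator were called, both higher.

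Other measures of the diabetic arrays are set beside the collagen values, and no association with them was tested. The CL array of diabetic MCAO mouse 5 had a mean signal of 6.47, against 6.66 to 6.72 in the other 15 arrays of these mice, and in this mouse the median IP minus CL was 0.19 over all genes and 0.42 over the members, the highest of the 8. The IP arrays of MCAO mice 1, 2, 4 and 5 had the lowest correlations with their group, down to 0.976, against 0.984 to 0.988 in the other diabetic arrays. The number of members called was 17 with every array centred on its median, and without mouse 1, 2, 4 or 5 it was 14, 10, 9 and 13. Genes below the median signal had a median IP minus CL of 0.08 at the median diabetic MCAO mouse (-0.03 to 0.20), against -0.02 in diabetic sham mice (-0.09 to 0.06), and the brighter genes -0.06 (-0.11 to 0.19), against 0.01 in diabetic sham mice. Over the same mice the median of the 42 members was 0.21 (-0.00118 to 0.42), against 0.02 in the sham mice (-0.12 to 0.09), and it was above 0 in 7 of 8 MCAO and 3 of 4 sham mice. In the dim part of the array, 12.4% of 9752 genes were called higher and 4.68% lower, and 9.04% of the brighter genes were called higher. The 8 control probe sets richest in G and C, which match no mouse gene, were at -0.01 at the median MCAO mouse (-0.63 to 0.69) and higher in IP in 4 of 8 mice, against -0.26 in the sham mice. Whether the dimness of the members bears on their values was not tested.

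**Figure D4:**
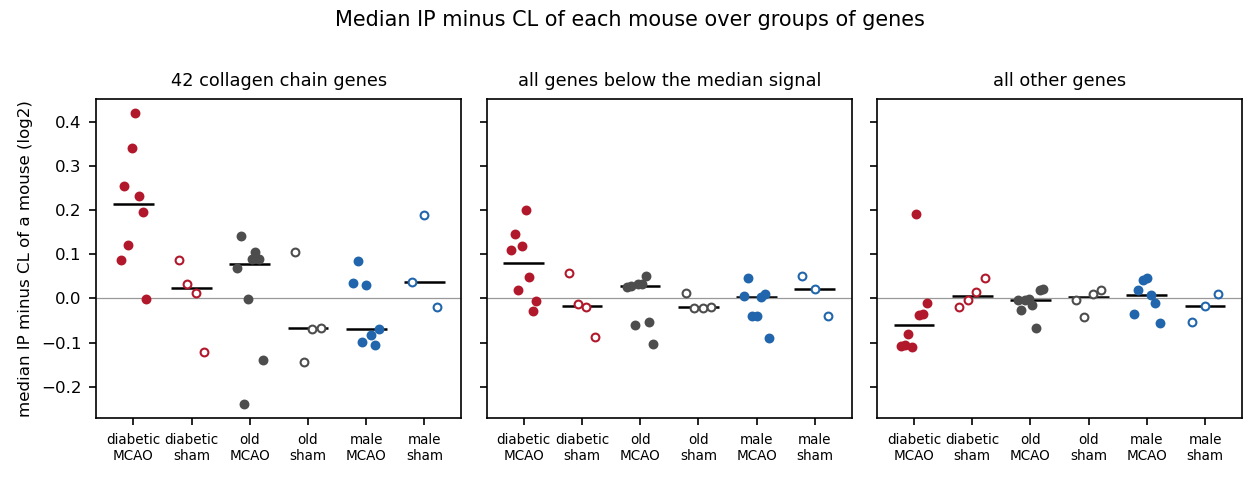
Median IP minus CL (log2, vertical axis) of each mouse over the 42 collagen chain genes, over all genes below the median signal and over all other genes, in diabetic, old and male mice after MCAO (filled) or sham surgery (open). Lines are medians over mice. In diabetic MCAO mice the collagen median is 0.21, above that of the dim genes at 0.08.

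Markers of cells that make collagen and of other cells were counted in diabetic MCAO mice. Of 10 markers of meningeal fibroblasts 2 were higher and 0 lower, where 10.7% and 11.4% of all genes were, and their summed signal was between 10.4 and 12.1 in IP and between 10.5 and 11.5 in CL of these mice, with 5 of 8 mice higher in IP. Of 8 markers of mural cells 0 were called, and of 8 endothelial markers 3 were higher, among them Flt1 at 0.44 ± 0.08 (SE, n = 8). The endothelial sum was between 11.6 and 12.1 in IP and between 11.2 and 11.8 in CL, with 7 of 8 mice higher in IP. Of 5 oligodendrocyte markers 4 were higher, with a median of 0.19, and 7 of 8 mice had the higher sum in IP. Of 2 measured red blood cell markers 1 was higher, Alas2 at 0.56 ± 0.15 (SE, n = 8), and their sum was higher in IP in 8 of 8 mice. The fibroblast, endothelial, oligodendrocyte and red blood cell sums were each also higher in IP in 3 of 4 diabetic sham mice. Their median differences were 0.05, 0.18, 0.04 and 0.03 there, against 0.17, 0.23, 0.22 and 0.42 in MCAO mice. No marker, and no gene of the array, was called in the difference between diabetic MCAO and sham mice. All 5 measured neutrophil markers were higher in MCAO mice, with a median of 1.12, against 0.10 in sham mice. Of 6 neuron markers 5 were lower, with a median of -0.21, against 0.01 in sham mice. Markers of striatal and cortical neurons were not lower. Of 6 measured striatal markers 1 was higher and 0 lower, with a median of 0.09, and of 5 cortical markers 0 were called, with a median of 0.00346. The sum of 8 choroid plexus markers, which shows how much of that tissue a piece contained, was between 9.02 and 13.9 in IP and between 8.86 and 13.7 in CL of diabetic MCAO mice, with 5 of 8 mice higher in IP and 0 markers called. The part of these cells in the collagen values was not tested, and in bulk tissue fewer cells of a type and less RNA per cell cannot be told apart.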

How the data were processed

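The authors deposited log2 signals of 29129 probe sets on 96 arrays, made with the Robust Multiarray Average algorithm on each group apart, with the Affymetrix Expression Console (no version given). Of these probe sets 19572 carried 1 gene symbol and 9557 none, and the one with the highest mean stood for each of 19505 genes. IP minus CL of each mouse was fitted in limma 3.58.1 (R 4.3.3) with surgery as 2 cell means within a group, or with 6 cell means over the 3 groups for pooled values and differences between groups, and p-values were adjusted by the Benjamini-Hochberg method over all 19505 genes. The fit was also run on simulated arrays that were drawn independently of one another, with planted changes larger than those of the members called in diabetic mice. That run therefore says nothing about the pairing by mouse or about changes as small as theirs. IP and CL arrays with the same number came from the same animal. The deviations of own pairs correlated at a median of 0.0823 to 0.176, against -0.113 to -0.0182 between different mice. Deviations were taken from the group mean, which by itself pulls correlations between different mice below 0. The IP array correlated best with its own CL array in 2 of 8 diabetic and 4 of 8 old MCAO mice, and in all 7 male MCAO mice. The mouse stayed as a block in every fit except the alternative without it. The methods' filter on the standard deviation was an alternative, since it removes most members. Differences between MCAO and sham mice within a group were added after the data were seen. Values by mouse were given for Col1a1, Col1a2, Col3a1, Col4a1, Col4a2 and the 12 called members with the lowest pooled p, and for 6 further members chosen for their values. The members and gene lists were chosen with earlier results of these data known. P-values measure the spread between these mice, whose number limits the precision. The tables came from pandas 2.3.3 and numpy 2.4.6 (Python 3.11.15), and the figures from matplotlib 3.10.9.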

Additional observations from a re-analysis of the deposited data

Results flagged for a closer look

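Among 75 sets of 4 to 8 mice tested over the 15 members described by rule, 2 held a mouse far from the others by Dixon's ratio, where chance marks about 1 in 20 sets. Col16a1 was 1.13 in old MCAO mouse 4, and the next of the 8 mice was at 0.32. Col9a1 was -0.83 in male MCAO mouse 4, and the next of the 7 mice was at 0.10.

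Members whose IP minus CL after MCAO differed between groups, by limma's test of the difference itself at an adjusted p under 0.25, were all higher in diabetic mice. Against old mice these were Col6a1 (0.39), Col11a1 (0.50), Col4a2 (0.42) and Col22a1 (0.60). Against male mice these were Col11a1 (0.87), Col6a1 (0.44), Col23a1 (0.50), Col4a1 (0.58), Col16a1 (0.47) and Col4a2 (0.36).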

How the results depend on the processing

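All 717 values of called members under the alternatives run kept their direction, and 580 stayed past the threshold. These members were picked by their calls and most alternatives left out only 1 mouse, so a kept direction says little about reliability. Shares of all genes called are not given for the alternatives. Changes in the counts of members below therefore cannot be told apart from changes over the whole array. In diabetic MCAO mice 17 members were called, with 2 at an adjusted p under 0.05 and 9 to 18 without single mice. The filter on the standard deviation left 11 members and 1 call (Col9a1). The filter on dim probes left 6 members and 5 calls, of which Col23a1 and Col28a1 were not among the 17. Members below the median signal, most of the 17, were not tested in that fit. Without the pairing by mouse (no block) Col11a2, Col15a1, Col6a1, Col6a5 and Col6a6 lost their calls. The count fell to 9 without MCAO mouse 4 and to 10 without MCAO mouse 2. The difference between diabetic MCAO and sham mice was called for 1 member, Col11a1, with arrays centred on their median, and for 0 to 1 without single mice (Col11a1 without MCAO mouse 8, adjusted p = 0.240). In the pooled MCAO fit the 5 calls became 0 at an adjusted p under 0.05, 2 with the filter on the standard deviation, 2 with the filter on dim probes, 8 with centred arrays, 3 without the pairing by mouse (no block), 2 with the 2 poor male mice kept, 9 without the male group and 3 to 9 without single mice, with 3 without male MCAO mouse 8 or old MCAO mouse 7, 8 without diabetic MCAO mouse 3 and 9 without male MCAO mouse 4. The pooled difference between MCAO and sham mice had 1 call with the filter on dim probes (Col16a1) and 0 to 1 without single mice (Col9a1 without male sham mouse 3).

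Between diabetic and old mice the 4 calls became 0 at an adjusted p under 0.05, 0 with the filter on the standard deviation, 0 without the block and 1 to 5 without single mice. The count was 1 without diabetic MCAO mouse 1, 2, 4 or 5 or old MCAO mouse 8, and 2 without diabetic MCAO mouse 6 or old MCAO mouse 3 or 7. Between diabetic and male mice the 6 calls became 1 at an adjusted p under 0.05, 1 with the filter on the standard deviation, 3 without the block and 3 to 9 without single mice, with 3 without diabetic MCAO mouse 4. In male MCAO mice 0 to 1 members were called without single mice (Col4a6 without mouse 5, Col23a1 without mouse 8). The difference between male MCAO and sham mice, called for Col23a1, had 0 calls at an adjusted p under 0.05, with the filter on dim probes, with centred arrays, without the block and with the 2 poor male mice kept, and 0 to 1 without single mice, with 0 in 8 of 10 such fits. A fit that leaves out a mouse has fewer samples, and the filters leave fewer genes. For the other counts the cause was not tested.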
